A study of Mus musculus with 2 samples.

Results

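The genes described are 41 mouse genes of redox defence: the superoxide dismutases and catalase, the glutathione peroxidases, the peroxiredoxins with sulfiredoxin, the thioredoxin system, the enzymes that make, recycle and use glutathione, the NRF2 axis and the metallothioneins. They are picked by gene symbol from a list of the pathway, and the rule uses no measured value. The list was, however, drawn up with earlier results of these data known. All 41 were found among 42462 annotated genes of the tables, of which 21474 are protein-coding. They were followed in hematopoietic stem cells (HSC), the rare marrow population that sustains all blood lineages, by sequencing of total RNA depleted of ribosomal RNA. There was 1 group of 2 biological replicates, both from male C57BL/6J mice of 5 to 6 weeks, each prepared with the ScriptSeq kit from 100 ng. The size range listed was 232 to 1000 nt for replicate 2 and 172 to 1452 nt for replicate 1. Its part in the differences between the libraries was not tested. The labels give no treatment and no control group. The sources used here give neither the sorting gate nor whether the replicates came from separate animals, so the spread between the libraries may be technical.

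Cells produce superoxide and hydrogen peroxide as by-products of respiration and as signals. Superoxide dismutases turn superoxide into hydrogen peroxide, which catalase, glutathione peroxidases and peroxiredoxins then reduce to water. The glutathione enzymes draw their electrons from the tripeptide glutathione and the peroxiredoxins from thioredoxin, and both carriers are recharged with NADPH. In HSC, low reactive oxygen is known as a feature of quiescence, and loss of this control is known to impair self-renewal. NRF2, the transcription factor held in check by KEAP1, drives many of these genes through a promoter motif, the antioxidant response element.

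Several of the enzymes share a feature that can be read in their coding sequence, which is shown because it separates the highest glutathione peroxidases, Gpx1 and Gpx4, from Gpx7 and Gpx8. Glutathione peroxidases 1, 3 and 4 and the thioredoxin reductases carry selenocysteine in the active centre, inserted at a TGA codon that would otherwise end translation. The stretches are from GENCODE M21 transcripts (GRCm38), 5′ to 3′, with the selenocysteine codon in capitals. In Gpx7 and Gpx8 the capitals mark the codon aligned with it, which reads cysteine.
Gpx1: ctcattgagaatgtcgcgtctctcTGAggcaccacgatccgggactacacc
Gpx4: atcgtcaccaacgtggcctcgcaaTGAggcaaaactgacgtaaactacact
Gpx3: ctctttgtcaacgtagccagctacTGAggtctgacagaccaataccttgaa
Gpx7: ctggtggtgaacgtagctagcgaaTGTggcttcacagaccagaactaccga
Gpx8: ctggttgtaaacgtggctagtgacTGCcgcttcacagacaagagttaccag
Txnrd1: ggagacatcctccagtctggctgcTGAggt
Txnrd2: ctggagcctactgtgactggttgcTGAggc
Txnrd3: ctggacattactcagaaaggctgcTGAggc
The TGA stands at codon 47 of 201 in Gpx1, in the first part of the reading frame. In the reductases it stands at codon 498 of 499 in Txnrd1 and is followed by a single codon in all 3 genes.

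Levels are given in TPM, which divides counts by transcript length and scales them over all features of a table, so genes can be compared with each other. Replicate 2 held 48490188 expected counts and replicate 1 held 27901074. For a count of 0, the upper limit of 3 counts corresponds to 0.0619 CPM in replicate 2 and 0.108 CPM in replicate 1, where CPM is the count relative to the depth of the library. Protein-coding genes took 20.3% of TPM in replicate 2 and 16.3% in replicate 1. TPM of a typical protein-coding gene was higher in replicate 2, by a median of 0.29 on the log2 scale over genes with a mean of at least 1 TPM. Of 10 HSC markers 9 reached 1 TPM in both libraries, among them Cd34 at 166.4 TPM in replicate 2 and 145.2 in replicate 1. Mecom, a transcription factor of HSC, had 16.9 TPM in replicate 2 and 16.8 in replicate 1. Slamf1, a surface antigen used to sort HSC, had 0.43 TPM in replicate 2 and 0.42 in replicate 1. Of 8 lymphoid markers 3 were detected: Ighm, the heavy chain of immunoglobulin M, had 47.0 TPM in replicate 2 and 60.7 in replicate 1, and Nkg7 and Lck, of natural killer and T cells, lay at 5 TPM or more. Pax5, of B cells, and Trac, of T cells, had 0 counts in both libraries. Neutrophil, mast cell and erythroid markers were present and differed between the libraries, as given below with the genes they accompany. In bulk RNA, fewer cells of a type and less RNA per cell cannot be told apart.

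Most of the redox genes were expressed, and many were abundant. At least 1 TPM in both libraries was reached by 35 of the 41, where 44.0% of all protein-coding genes reached it. The others were Gpx3, Gpx7, Gpx8, Hmox1, Nqo1 and Mt2. At least 10 expected counts in both libraries were found for 39 of the 41 and for 56.3% of protein-coding genes, so most of these 6 were low rather than unseen. The median redox gene had 14.7 TPM in replicate 2 and 8.93 in replicate 1, against 0.53 TPM in replicate 2 and 0.51 in replicate 1 for all protein-coding genes. Protein-coding genes at 1 TPM or more in both libraries had medians of 7.16 TPM in replicate 2 and 5.84 in replicate 1. By mean TPM, 16 of the 41 lay above at least 90% of protein-coding genes. The list is of well studied enzymes, many of them used by every cell, and no other cell type was measured beside HSC.

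Levels were concentrated in few genes. Means of 50 TPM or more were found for 7 genes, namely Gpx1, Sod1, Prdx2, Prdx6, Txnip, Gpx4 and Prdx5. Another 15 lay from 10 to 50 TPM, 15 from 1 to 10, and 4 below 1. The 5 highest genes held 47.6% of the summed TPM of all 41 in replicate 2 and 53.8% in replicate 1. Between neighbours in this order only 7 of 40 steps held in both libraries with deposited intervals that did not overlap. Gpx1 stood above Sod1 in that sense, and Prdx5 above Prdx1, but Sod1 and Prdx2 were not ordered, nor were most of the genes between 5 and 20 TPM.

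**Figure D1:**
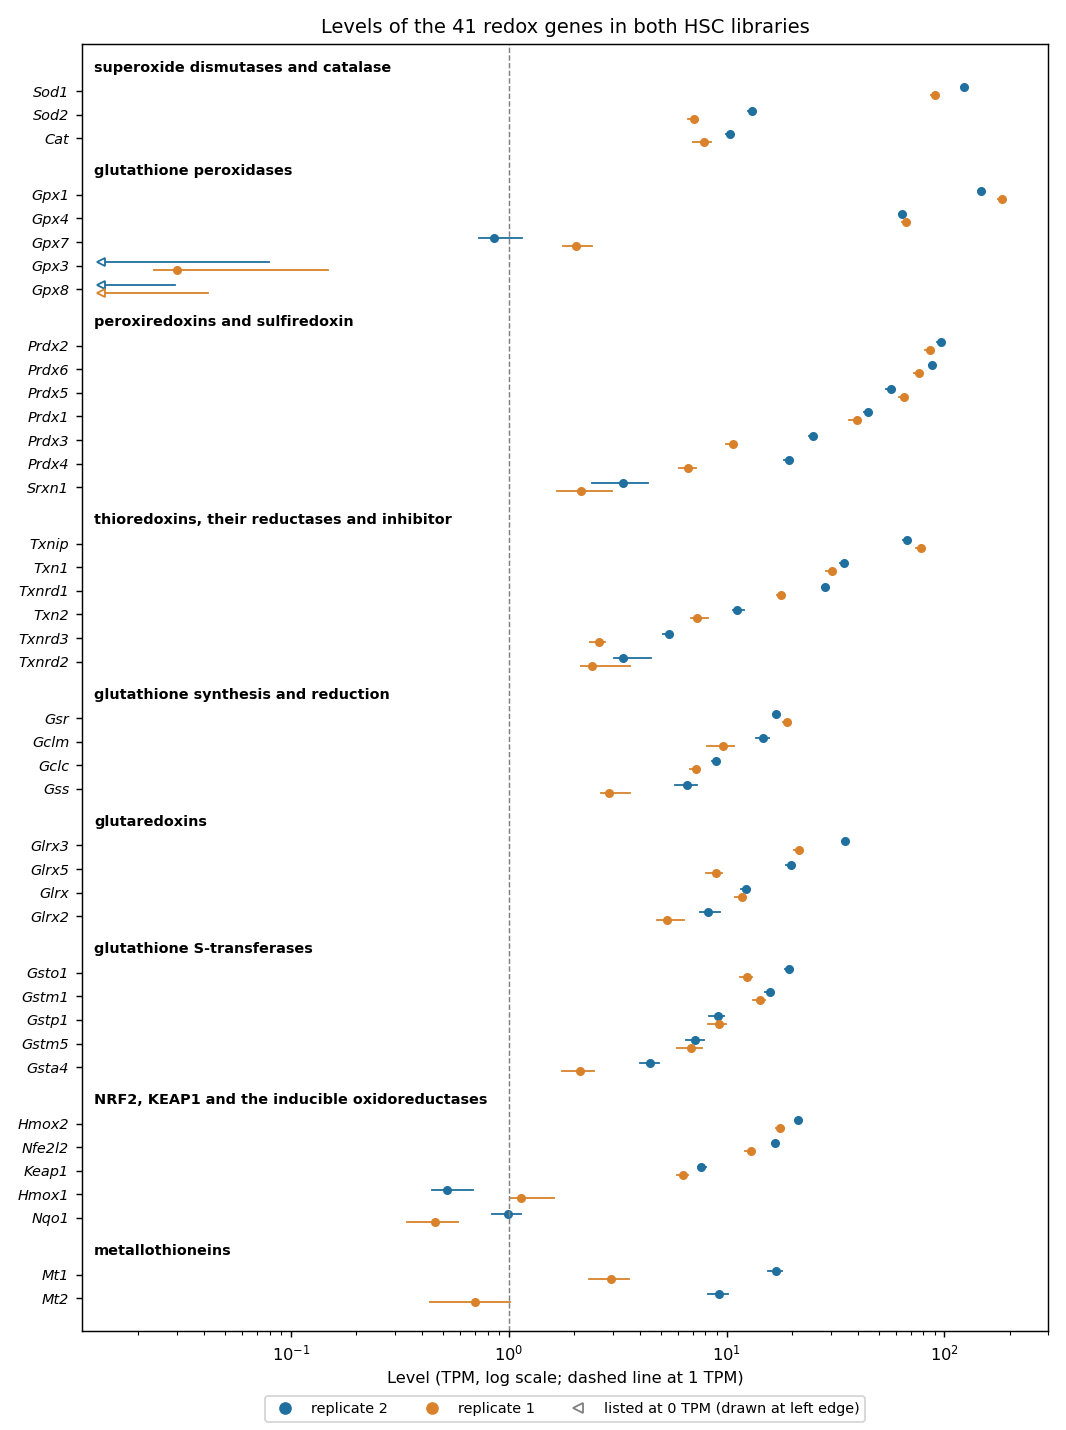
Level of each of the 41 genes in TPM (log axis) by role, with replicate 2 drawn above replicate 1. Points are deposited values and horizontal lines the deposited intervals. Gpx1, Sod1, Prdx2 and Prdx6 sit at the right, Gpx3 and Gpx8 at the left, and the replicates of Mt1 and Mt2 lie far apart.

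Among the superoxide dismutases, the cytosolic enzyme led. Sod1, the copper and zinc dismutase of the cytosol (chromosome 16, 90220754 to 90226329, GRCm38), had 122.5 TPM in replicate 2 and 90.9 in replicate 1. Sod2, the manganese dismutase of mitochondria, had 13.0 TPM in replicate 2 and 7.09 in replicate 1. Sod1 exceeded Sod2 in both libraries, by 10.9-fold on average per transcript length, and the log2 ratio was 3.22 in replicate 2 against 3.66 in replicate 1. Their read counts were closer, 6391 for Sod1 and 6047 for Sod2 in replicate 2, since the Sod2 transcripts are longer. Of the dismutases outside the 41, the secreted Sod3 had 0 counts in both libraries, and Ccs, the chaperone that loads copper into SOD1, had 4.09 TPM in replicate 2 and 2.93 in replicate 1.

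Transcripts of the glutathione peroxidases Gpx1 and Gpx4 were far more abundant than those of catalase. Cat, the peroxisomal catalase, had 10.3 TPM in replicate 2 and 7.86 in replicate 1. Gpx1, the main glutathione peroxidase of cytosol and mitochondria (chromosome 9, 108338903 to 108340343), was the highest of all 41 genes, at 146.6 TPM in replicate 2 and 184.0 in replicate 1. The Gpx1 level was 18.0-fold that of Cat per transcript length, in the same direction in both libraries. Gpx4, which reduces lipid peroxides in membranes and guards against ferroptosis, had 63.9 TPM in replicate 2 and 66.7 in replicate 1, 2.51-fold below Gpx1.

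The other glutathione peroxidases were low or not detectable. Gpx7, an enzyme of the endoplasmic reticulum, had 0.86 TPM in replicate 2 and 2.04 in replicate 1. Gpx8, its relative in the same compartment, had 0 counts in both libraries, which allows up to 0.0299 TPM in replicate 2 and 0.0422 in replicate 1. Gpx3, the secreted plasma enzyme, had 0 counts in replicate 2 and 4 in replicate 1. The gene family was thus carried by Gpx1 and Gpx4, which are selenoproteins, but not all selenoprotein members were high, as Gpx3 shows. Gpx2, Gpx5 and Gpx6, which were not among the 41, also had 0 counts in both.

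The annotation marks a selenocysteine codon in 24 genes, a set looked up after the values of the members were known, and 18 of them had 1 TPM or more in both libraries. The members among them are Gpx1, Gpx3, Gpx4 and the 3 thioredoxin reductases. Gpx1 was the highest of the 24, with Selenof, an endoplasmic reticulum protein, next at 120.0 TPM in replicate 2 and 78.0 in replicate 1. All 9 genes listed for selenoprotein synthesis were detected. They included Sephs2, which makes the selenium donor, at 18.6 TPM in replicate 2 and 12.3 in replicate 1. Eefsec, the elongation factor for selenocysteine, had 2.41 TPM in replicate 2 and 2.00 in replicate 1.

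All 6 peroxiredoxins were expressed, and with sulfiredoxin they held 30.5% of the summed TPM of the 41 genes in replicate 2 and 29.9% in replicate 1. Prdx2, the cytosolic peroxidase best known from red cells, had 96.2 TPM in replicate 2 and 85.5 in replicate 1. Prdx6, the family member that uses glutathione and also acts as a phospholipase, had 87.7 TPM in replicate 2 and 76.2 in replicate 1. Prdx5, found in mitochondria, peroxisomes and cytosol, had 56.7 TPM in replicate 2 and 65.5 in replicate 1. Prdx1, the other abundant cytosolic form, had 44.8 TPM in replicate 2 and 39.7 in replicate 1. On deposited TPM these 4 genes kept narrow ratios between the libraries. Log2 ratios of replicate 2 over replicate 1 ran from -0.21 for Prdx5 to 0.20 for Prdx6. The range was wider on counts scaled with edgeR, from -0.52 for Prdx5 to 0.19 for Prdx1. With TPM rescaled over protein-coding genes it ran from -0.53 for Prdx5 to -0.11 for Prdx6.

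The organelle forms Prdx3 and Prdx4 were lower and less steady. Prdx3, confined to mitochondria, had 24.9 TPM in replicate 2 and 10.7 in replicate 1. Prdx4, of the endoplasmic reticulum, had 19.4 TPM in replicate 2 and 6.68 in replicate 1. Prdx5 exceeded Prdx3 on TPM in both libraries, but the log2 ratio of Prdx3 over Prdx5 was -1.18 in replicate 2 and -2.61 in replicate 1. This order is not firm either, as on read counts alone Prdx3 was slightly ahead in replicate 2. The log2 ratio of counts for Prdx3 over Prdx5 was 0.12 there, against -1.35 in replicate 1. Srxn1 encodes sulfiredoxin, which repairs overoxidised peroxiredoxins, and is known as an NRF2 target. It had 3.33 TPM in replicate 2 and 2.15 in replicate 1, 15.2-fold below Prdx1.

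Some of these levels rest on reads that the tables may not assign to 1 gene with certainty. Expected counts were not whole, within a tolerance of 0.005, in at least 1 library for 6 of the 41 genes (Sod1, Prdx1, Prdx2, Gclm, Glrx3 and Gstp1), as happens where reads are shared with another feature. On the opposite strand, 12 of the 41 overlap another gene. For Prdx2 these are Junb and Rnaseh2a, of which the higher had 38.5 TPM on average, and for Prdx5 Trmt112 with 53.9 TPM. The sources used here do not say whether counting used the strand, and without it reads of such partners cannot be told apart.

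The thioredoxin system was present in cytosol and mitochondria. Txn1, cytosolic thioredoxin, had 34.7 TPM in replicate 2 and 30.4 in replicate 1. Txn2, its mitochondrial form, had 11.2 TPM in replicate 2 and 7.34 in replicate 1. Of the reductases that recharge them with NADPH, cytosolic Txnrd1 (chromosome 10, 82833951 to 82897712) had 28.3 TPM in replicate 2 and 17.8 in replicate 1. Mitochondrial Txnrd2 had 3.34 TPM in replicate 2 and 2.40 in replicate 1. Txnrd3, known for its role in testis, had 5.42 TPM in replicate 2 and 2.60 in replicate 1. The cytosolic form led in each case, Txn1 by 3.56-fold over Txn2 and Txnrd1 by 7.69-fold over Txnrd2.

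Txnip was the highest gene of the thioredoxin group. It encodes an inhibitor that binds thioredoxin and also restrains glucose uptake, and mouse HSC are known to need it to stay quiescent. Its level was 67.3 TPM in replicate 2 and 77.8 in replicate 1, 2.23-fold above Txn1 on average and above it in both libraries. With only the transcripts annotated as protein-coding, Txnip had 45.7 TPM in replicate 2 and 55.2 in replicate 1.

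Every enzyme of glutathione synthesis was detected, at moderate levels. Gclc, the catalytic subunit of the rate-limiting glutamate-cysteine ligase, had 8.97 TPM in replicate 2 and 7.26 in replicate 1. Gclm, its modifier subunit, had 14.7 TPM in replicate 2 and 9.66 in replicate 1, 1.47-fold above Gclc per transcript length. The order of the subunits is not firm. Without division by length it turned in replicate 1, where the log2 ratio of counts for Gclc over Gclm was -0.12 in replicate 2 and 0.38 in replicate 1. On protein-coding transcripts alone it turned in replicate 1 too, as Gclm then had 12.7 TPM in replicate 2 and 4.17 in replicate 1. Gss, which adds glycine in the last step, had 6.58 TPM in replicate 2 and 2.90 in replicate 1. Gsr, the reductase that regenerates glutathione with NADPH, had 16.8 TPM in replicate 2 and 19.0 in replicate 1. Gsr and Txnrd1, the reductases of the 2 systems, were not ordered: the log2 ratio of Txnrd1 over Gsr was 0.75 in replicate 2 and -0.09 in replicate 1.

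Genes around this pathway were described from lists that were also drawn up with earlier results of these data known. Of 12 genes for glutathione transport and breakdown 7 were detected. Highest were the exporter Abcc1, at 11.3 TPM in replicate 2 and 9.32 in replicate 1, and Slc3a2, the heavy chain of the cystine carrier, at 10.9 in each. Slc7a11, the light chain of that carrier, had 1.15 TPM in replicate 2 and 0.59 in replicate 1 and was not among those detected. Of 16 genes listed around NADPH supply 14 were detected. The highest was Tkt, a pentose phosphate enzyme that does not itself make NADPH, at 58.5 TPM in replicate 2 and 43.7 in replicate 1. Taldo1, another such enzyme, had 38.4 TPM in replicate 2 and 47.0 in replicate 1. The enzymes of that pathway that make NADPH were lower. G6pdx had 11.2 TPM in replicate 2 and 10.2 in replicate 1, and Pgd had 6.12 in replicate 2 and 6.51 in replicate 1. The mitochondrial isocitrate dehydrogenase Idh2 had 36.8 TPM in replicate 2 and 39.2 in replicate 1.

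All 4 glutaredoxins, small proteins that use glutathione to reduce disulfides or carry iron-sulfur clusters, were detected. Glrx3, a cytosolic carrier of iron-sulfur clusters, had 34.9 TPM in replicate 2 and 21.6 in replicate 1. Glrx5, the mitochondrial carrier that heme synthesis needs, had 19.8 TPM in replicate 2 and 8.93 in replicate 1. The disulfide reductase Glrx had 12.3 TPM in replicate 2 and 11.8 in replicate 1. Mitochondrial Glrx2 had 8.23 TPM in replicate 2 and 5.35 in replicate 1. Glrx3 exceeded Glrx5 by 2.05-fold on average, in both libraries.

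The glutathione S-transferases couple glutathione to reactive compounds. Gsto1, an omega class enzyme, had 19.4 TPM in replicate 2 and 12.5 in replicate 1. Gstm1 had 15.8 TPM in replicate 2 and 14.3 in replicate 1. Gstm5, its mu class relative on the same chromosome, had 7.19 TPM in replicate 2 and 6.90 in replicate 1. Gstp1, of the pi class, had 9.10 TPM in replicate 2 and 9.25 in replicate 1. Gsta4, which handles the lipid peroxidation product 4-hydroxynonenal, had 4.47 TPM in replicate 2 and 2.12 in replicate 1. All 5 were detected, as were 9 of the 19 other transferases listed. Both lists were drawn up with earlier results of these data known, so these counts describe the lists alone. Among the 19, Gsta1, Gsta2, Gstm3, Gstm6 and Gsto2 had 0 counts in both libraries. The highest of those outside the 41 was Mgst1, a membrane enzyme, at 6.72 TPM in replicate 2 and 13.9 in replicate 1, and it was apart between the libraries by the rule given below under all 5 scalings tried. So was Mgst2, at 2.15 TPM in replicate 2 and 4.51 in replicate 1. Mgst3 was apart on deposited TPM only and in the other direction, at 3.23 TPM in replicate 2 and 1.46 in replicate 1.

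Nfe2l2, the gene of NRF2, had 16.8 TPM in replicate 2 and 12.9 in replicate 1. Keap1, the adaptor that hands NRF2 to degradation, had 7.66 TPM in replicate 2 and 6.28 in replicate 1. Nfe2l2 exceeded Keap1 by 2.10-fold, and the log2 ratio was 1.12 in replicate 2 against 1.02 in replicate 1. Of 12 listed partners and regulators 10 were detected. Among these Sqstm1, which binds KEAP1, had 91.6 TPM in replicate 2 and 60.2 in replicate 1. Cul3, the ubiquitin ligase scaffold that KEAP1 works with, had 61.0 TPM in replicate 2 and 59.4 in replicate 1.

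Among the textbook targets of NRF2 the levels ran over a wide range. Nqo1, the quinone reductase most used as an NRF2 reporter, had 0.99 TPM in replicate 2 and 0.46 in replicate 1. Hmox1, the inducible heme oxygenase, had 0.52 TPM in replicate 2 and 1.14 in replicate 1. Neither reached 1 TPM in both libraries, and they were not ordered with each other. Hmox2, the constitutive heme oxygenase, had 21.3 TPM in replicate 2 and 17.7 in replicate 1, 22.2-fold above Hmox1 on average. Other genes known to respond to NRF2 were well above these low ones, among them Prdx1, Txnrd1 and Gclm.

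**Figure D2:**
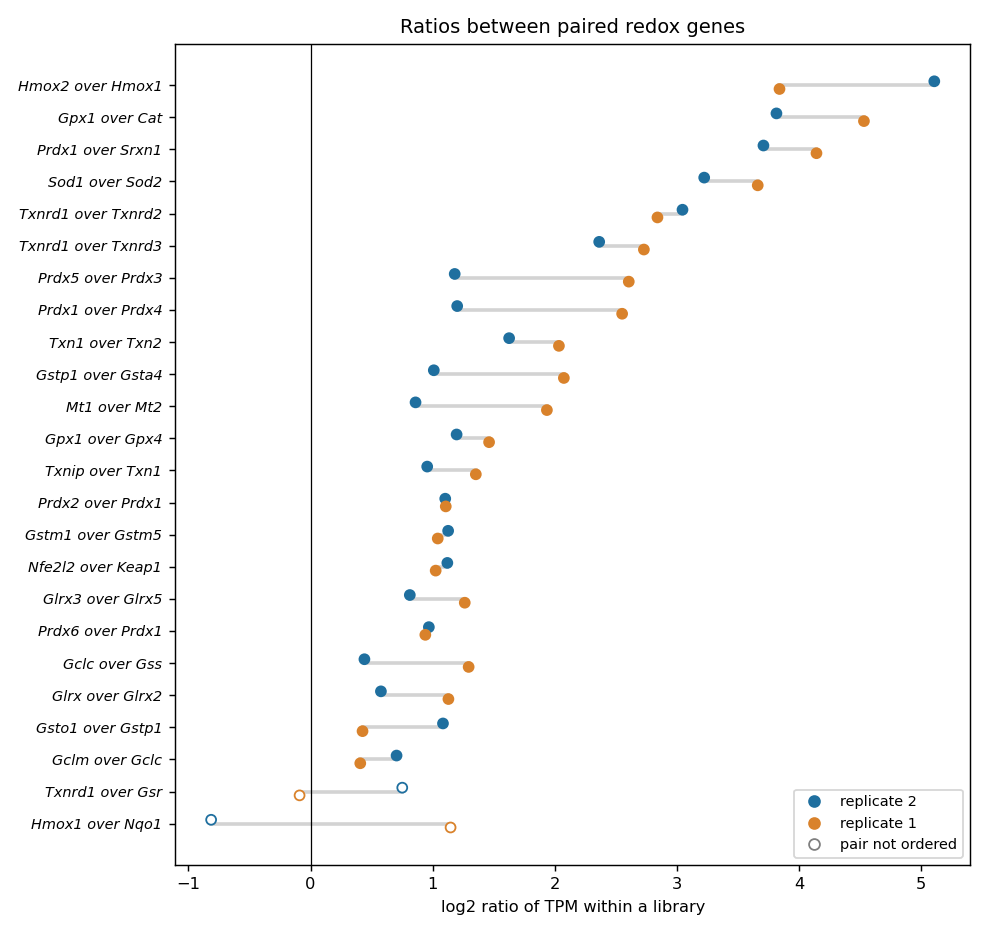
Log2 ratio of TPM between paired genes within each library, with replicate 2 above replicate 1 and the gene of higher mean named first. Open symbols mark the pairs that were not ordered. Hmox2 over Hmox1 and Gpx1 over Cat lie furthest right, while Txnrd1 over Gsr and Hmox1 over Nqo1 cross 0. The pairs with Gpx3 and Gpx8, which have 0 counts in a library, are not drawn.

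Over all 26 gene pairs compared, 24 held one direction in both libraries with deposited intervals that did not overlap in either. On protein-coding transcripts alone, 22 of these 24 kept their direction in both libraries, and Prdx6 with Prdx1 and Gclm with Gclc did not. The pairs that did not hold on TPM were Txnrd1 with Gsr and Nqo1 with Hmox1. The pairs were chosen with earlier results of these data known, so their count describes these genes alone. Among the steadiest ratios on TPM was that of Prdx1 over Prdx2, whose log2 value was -1.10 in replicate 2 and -1.11 in replicate 1. That of Prdx6 over Prdx1 was 0.97 in replicate 2 and 0.94 in replicate 1. On counts without division by length both were less steady. Prdx1 over Prdx2 was then -0.06 in replicate 2 and -0.41 in replicate 1, and Prdx6 over Prdx1 was 0.49 in replicate 2 and 0.89 in replicate 1.

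The motif of the antioxidant response element was looked up in the RefSeq promoter windows (GRCm38.p6), which run from 250 bases before to 50 after a start site. A window was given for 36 of the 41 genes, all but Gclc, Gsr, Gsta4, Hmox1 and Prdx6. The core TGACNNNGC, searched on both strands, was found in 8 of the 36 (Gclm, Gstm5, Mt2, Nfe2l2, Prdx1, Sod1, Srxn1 and Txnrd1). It was found for 14.0% of all 27025 genes with a window and for 15.1% of the protein-coding genes among them. Some are shown because these genes span the levels above, with the core in capitals as it reads on the strand of the gene.
Txnrd1, chr10:82859098-82859138, plus strand: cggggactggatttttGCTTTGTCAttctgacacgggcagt
Prdx1, chr4:116685450-116685490, plus strand: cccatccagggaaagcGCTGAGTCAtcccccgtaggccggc
Gclm, chr3:122245407-122245447, plus strand: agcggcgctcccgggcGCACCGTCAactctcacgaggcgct
Sod1, chr16:90220690-90220730, plus strand: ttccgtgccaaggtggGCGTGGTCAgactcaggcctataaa
Mt2, chr8:94172523-94172563, plus strand: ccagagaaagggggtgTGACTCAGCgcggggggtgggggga
In the first 4 the core lies on the opposite strand. Only Txnrd1 also matched a longer form, the core followed by an A, which was found for 3.45% of all genes. Nqo1 had a window and no match to the core in it. Genes with a match ranged from Sod1 to Srxn1 in level, and a match of letters is a description, not evidence of binding.

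Metallothioneins, small cysteine-rich proteins that bind zinc and copper and scavenge radicals, differed most between the libraries. Mt1 stood at 16.9 TPM in replicate 2, with 649 counts, and at 2.96 TPM in replicate 1, with 89 counts. Mt2 stood at 9.24 TPM in replicate 2, with 375 counts, and at 0.70 TPM in replicate 1, with 22 counts. The log2 ratio of replicate 2 over replicate 1 was 2.47 for Mt1 and 3.55 for Mt2, with a pseudocount of 0.1 TPM. The genes are neighbours on chromosome 8, Mt2 from 94172664 to 94173568 and Mt1 from 94179082 to 94180327. Mt1 exceeded Mt2 in both libraries, by 2.63-fold on average. Mt3 and Mt4, the forms of brain and epithelia, had 0 counts in both. Mtf1, the zinc-sensing factor that drives Mt1 and Mt2, had 7.32 TPM in replicate 2 and 3.95 in replicate 1. By the rule given below Mtf1 was not apart under any of the 5 scalings tried. Its log2 ratio was 0.87 on deposited TPM, 0.57 on TPM over protein-coding genes and 0.29 on counts scaled with edgeR.

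MTF1 binds metal response elements, whose core is TGCACNC or TGCGCNC, searched on both strands and chosen after these values were seen. The promoter windows of the pair are shown since both genes differed in the same direction, with the cores in capitals. Mt1 holds 3 and Mt2 holds 4.
Mt1, chr8:94178839-94179138, plus strand: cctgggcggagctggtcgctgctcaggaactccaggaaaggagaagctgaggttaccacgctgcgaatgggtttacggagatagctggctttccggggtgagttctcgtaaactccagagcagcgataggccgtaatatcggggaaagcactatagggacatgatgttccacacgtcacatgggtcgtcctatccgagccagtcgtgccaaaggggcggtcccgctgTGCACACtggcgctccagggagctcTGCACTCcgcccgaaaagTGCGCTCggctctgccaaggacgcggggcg
Mt2, chr8:94172368-94172667, plus strand: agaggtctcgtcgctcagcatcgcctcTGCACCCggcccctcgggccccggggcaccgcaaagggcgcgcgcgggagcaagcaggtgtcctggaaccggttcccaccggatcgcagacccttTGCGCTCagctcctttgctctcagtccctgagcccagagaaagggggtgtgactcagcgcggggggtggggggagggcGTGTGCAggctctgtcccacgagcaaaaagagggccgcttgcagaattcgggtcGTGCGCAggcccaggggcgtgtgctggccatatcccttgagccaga
At least 1 core was found for 13 of the 36 genes with a window. It was found for 28.2% of all genes and for 33.0% of protein-coding genes. Genes with 3 or more in a window made up 2.27% of all and included, among the 41 genes, Mt1, Mt2 and Gclm. Gclm differed less between the libraries than the metallothioneins, with a log2 ratio of 0.60 for replicate 2 over replicate 1.

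Between the libraries, a gene was called apart when its mean was at least 1 TPM, the difference was over 2-fold and the deposited intervals did not overlap. Of the 41 genes 37 had that mean. Apart and higher in replicate 2 were 8 genes, where 6.54% of protein-coding genes with that mean were. These were Mt2, Mt1, Prdx4, Prdx3, Gss, Glrx5, Gsta4 and Txnrd3, with log2 ratios from 3.55 for Mt2 to 1.03 for Txnrd3. Apart and higher in replicate 1 was Gpx7 alone, at a log2 ratio of -1.16, where 2.07% of protein-coding genes were. At any size 30 of the 37 were higher in replicate 2, as were 74.0% of protein-coding genes, so that count is close to the background.

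Part of this list followed the scaling. With TPM rescaled over protein-coding genes, which brought the median log2 ratio of protein-coding genes to -0.02, the redox genes had a median of 0.08. Mt1, Mt2, Prdx4 and Gpx7 were apart under all 5 scalings tried. These scalings are not independent. Deposited TPM, rescaled TPM and ratios centred on the median share the same TPM, and edgeR and DESeq2 share the same counts. Prdx3, Gss, Glrx5, Gsta4 and Txnrd3 were apart on deposited TPM only. On rescaled TPM the log2 ratios were 2.19 for Mt1, 3.38 for Mt2, 1.22 for Prdx4 and -1.54 for Gpx7. Hmox1 became apart, higher in replicate 1, on that scale only.

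**Figure D3:**
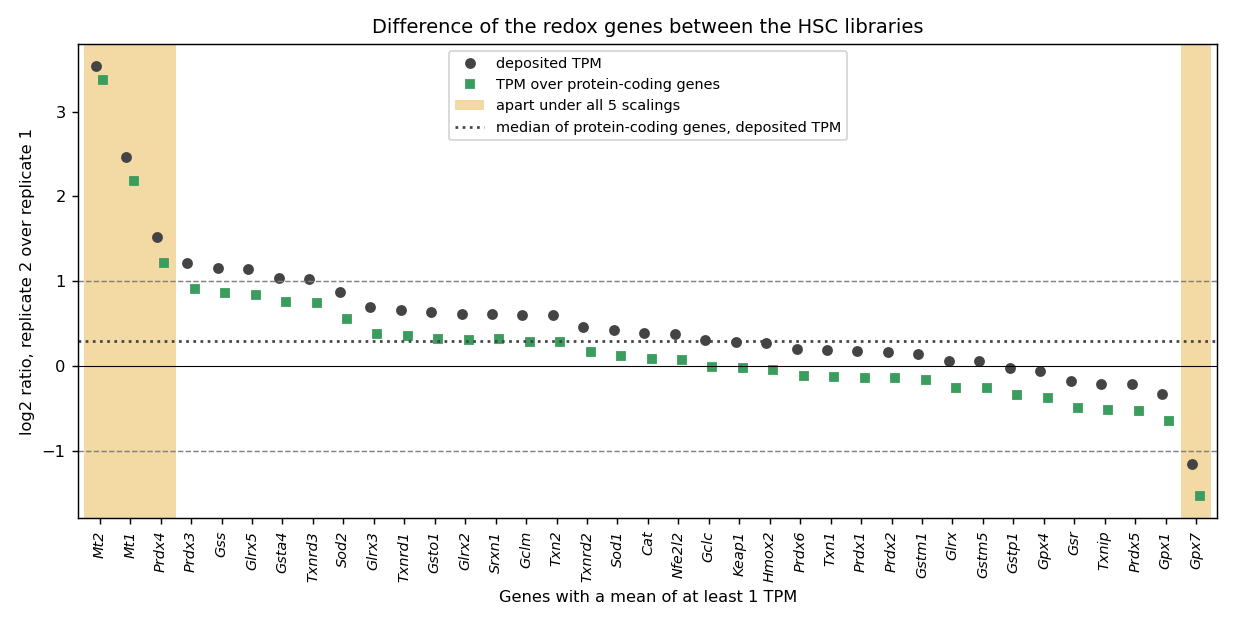
Log2 ratio of replicate 2 over replicate 1 for the 37 genes with a mean of at least 1 TPM, on deposited TPM (circles) and on TPM over protein-coding genes (squares). Dashed lines mark 2-fold, the dotted line the median of protein-coding genes at 0.29, and shading the 4 genes apart under all 5 scalings.

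Markers of blood cells other than HSC moved with these differences. Of 12 erythroid markers 6 were apart and higher in replicate 2, and their summed level was 252.5 TPM in replicate 2 and 117.7 in replicate 1. Car1 was among them, at 66.9 TPM in replicate 2 and 9.74 in replicate 1. Of the defining genes, Alas2, the erythroid heme synthesis enzyme, had 0 counts in replicate 2 and 2 in replicate 1, and Epor, the erythropoietin receptor, had 299 in replicate 2 and 0 in replicate 1. Hba-a2, an alpha globin gene, had 21.3 TPM in replicate 2 and 9.78 in replicate 1. Of 12 neutrophil markers 7 were apart and higher in replicate 1, with sums of 1219 TPM in replicate 2 and 3194 in replicate 1. Of 8 mast cell and basophil markers 6 were apart and higher in replicate 1 and Gata1, which red cell precursors also use, was higher in replicate 2, with sums of 35.4 TPM in replicate 2 and 75.6 in replicate 1. Among 8 monocyte and macrophage markers 3 were likewise, with sums of 172.6 TPM in replicate 2 and 370.5 in replicate 1. None of the 10 HSC markers was apart, and the highest log2 ratio among those with a mean of at least 1 TPM was 0.40. Under all 5 scalings 4 of the erythroid calls held, as did all 7 of the neutrophil, 3 of the monocyte and 7 of the mast cell calls. The part of these cell types in the differences of the redox genes was not tested.

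**Figure D4:**
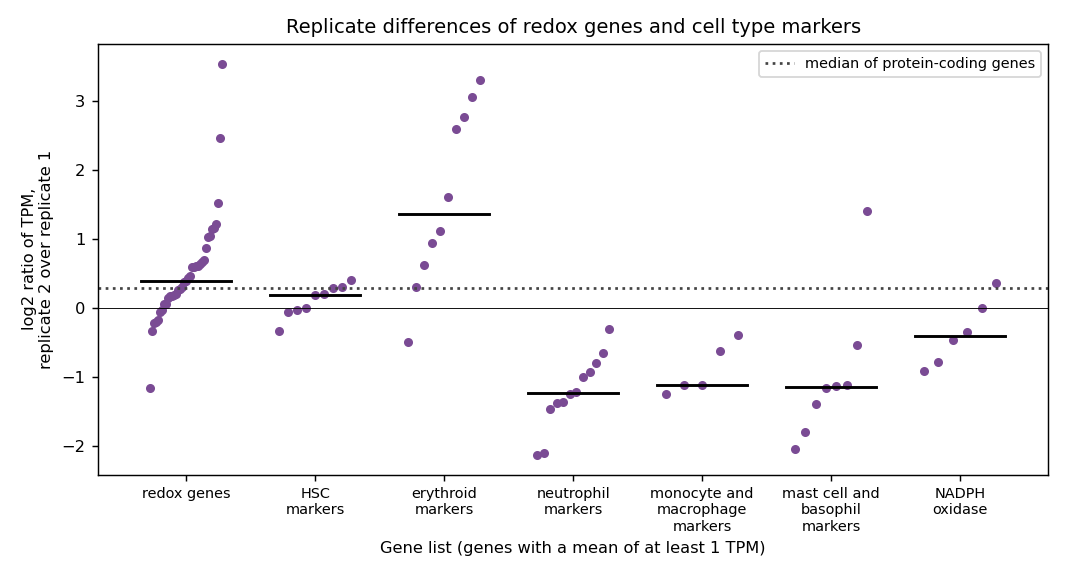
Log2 ratio of TPM, replicate 2 over replicate 1, for each gene with a mean of at least 1 TPM in the redox list, 5 marker lists and the NADPH oxidase list. Bars are medians and the dotted line is the median of protein-coding genes. HSC markers lie between -0.33 and 0.40, erythroid markers mostly above 0 and neutrophil markers below it.

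The source of superoxide in phagocytes was looked at beside the defence genes. Of 11 genes of the NADPH oxidases 6 were detected, all of the phagocyte type or its regulators. Ncf1, a cytosolic subunit, had 12.5 TPM in replicate 2 and 17.3 in replicate 1. Cybb, the catalytic membrane subunit, had 10.1 TPM in replicate 2 and 17.5 in replicate 1. Nox3, Duox1 and Duox2 had 0 counts in both libraries. By the rule given above no oxidase gene was apart on deposited TPM. Cybb and Cyba, the membrane subunits, were apart and higher in replicate 1 under the other 4 scalings, with log2 ratios of -1.11 for Cybb and -1.24 for Cyba on TPM over protein-coding genes. The part in their level of cells with the neutrophil markers, of which 12 of 12 were detected, was not tested.

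The heme and iron genes gave a further frame. Ftl1, the light chain of the iron store ferritin, had 122.8 TPM in replicate 2 and 121.9 in replicate 1. Fth1, the heavy chain, had 90.2 TPM in replicate 2 and 82.9 in replicate 1, in the range of the highest redox genes. Blvrb, a biliverdin reductase known from red cells, had 5.82 TPM in replicate 2 and 3.05 in replicate 1. Slc40a1, the iron exporter ferroportin, had 7.53 TPM in replicate 2 and 1.70 in replicate 1 and was apart on deposited TPM. Its counts were 829 in replicate 2 and 465 in replicate 1, and on counts scaled with edgeR the log2 ratio was 0.03, so that call rests on the division by transcript length.

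Gene levels sum over transcripts of several kinds, and for some redox genes much of the level lay outside the protein-coding ones. Of the 35 detected genes 6 had under 90% of their TPM in protein-coding transcripts in both libraries (Gclm, Nfe2l2, Prdx2, Prdx6, Srxn1 and Txnip). The same held for 31.0% of detected protein-coding genes. Prdx6 stood out with a protein-coding share of 19.1% in replicate 2 and 23.7% in replicate 1. Its leading transcript was Prdx6-208, annotated as a target of nonsense-mediated decay, with 59.7% of the gene's TPM in replicate 2 and 54.8% in replicate 1. On protein-coding transcripts alone Prdx6 had 16.8 TPM in replicate 2 and 18.0 in replicate 1. It then lay below Prdx1, which had 44.3 TPM in replicate 2 and 38.2 in replicate 1 on the same basis, so the order of that pair depends on how reads were divided among transcripts.

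Prdx2 and Gclm also carried transcripts with a retained intron. For Prdx2, Prdx2-205 held 38.5% of TPM in replicate 2 and 36.9% in replicate 1. It is a short transcript, and its counts were 1468 of 10900 in replicate 2 and 974 of 6968 in replicate 1. For Gclm the retained-intron class held 11.5% of TPM in replicate 2 and 47.2% in replicate 1. Srxn1 had 45.9% of its TPM in transcripts without a reading frame in replicate 2 and 45.4% in replicate 1. These rest on few counts, with 27.7 for Srxn1-202 in replicate 2 and 5.99 in replicate 1.

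**Figure D5:**
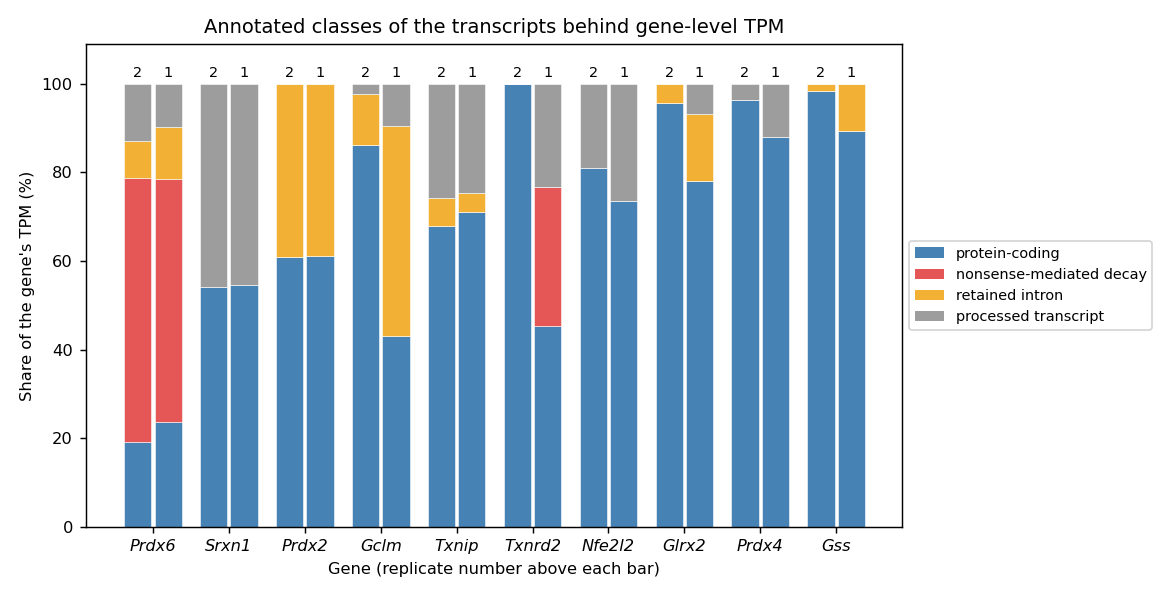
Share of each gene's TPM (percent) by annotated transcript class for the 10 detected genes with under 90% protein-coding transcripts in at least 1 library, replicate 2 left of replicate 1. Prdx6 has the smallest protein-coding share, and Gclm and Txnrd2 differ most between the libraries.

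Among 23 detected genes with several transcripts, 18 had the same leading transcript in both libraries, and 75.0% of such protein-coding genes did. The leading transcript of Gpx1, Gpx1-201, held 75.8% in replicate 2 and 54.9% in replicate 1, while Gpx1-204 held 11.9% in replicate 2 and 38.5% in replicate 1. For Gpx4 the order turned: Gpx4-207 held 55.7% in replicate 2 and 29.1% in replicate 1, and Gpx4-202 held 44.3% in replicate 2 and 70.8% in replicate 1. Its gene level had a log2 ratio of -0.06 on deposited TPM, -0.38 on TPM over protein-coding genes and -0.53 on counts scaled with edgeR. Gss also changed, with Gss-202 leading in replicate 2 at 51.7% and Gss-203 in replicate 1 at 60.9%. That bears on its call above, since Gss differed by a log2 ratio of 1.15 on TPM but by 0.37 on counts scaled with edgeR, which do not depend on transcript length. Gclm, Gstm5 and Txnrd2 were the others whose leading transcript differed.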

How the data were processed

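Total RNA of 2 HSC libraries was analysed from 1 gene and 1 transcript table each. Per the file headers, the authors deposited expected counts (estimates, not always whole numbers), TPM, FPKM, interval bounds and posterior SDs (a score here), whose interval level the headers do not state, and, for transcripts, the isoform percent. The tables rest on mm10 and GENCODE M4, per the sample text files. The tools that aligned and counted the reads were not given in the sources used here. TPM and FPKM were scaled by the authors over all features, so they move with the share of noncoding RNA.

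Names and positions came from GENCODE M21 by identifier, and promoters from RefSeq (GRCm38.p6). Detection meant at least 1 TPM in both libraries. Ratios are replicate 2 over replicate 1 with a pseudocount of 0.1 TPM. Floors (3 counts) cover counting error only. With 1 group there was no test. Replicates differed beyond sampling noise, with a chi-square of 147.6 per degree of freedom over 13813 genes. Counts were rounded for edgeR 4.0.16 (TMM) and DESeq2 1.42.0 (size factors), in R 4.3.3. Other steps used Python 3.11.15, pandas 2.3.3 and numpy 2.4.6 and were tested on simulated data. The members, lists and pairs were chosen with earlier results of these data known. All members are named, and of other lists the 4 highest and 2 lowest. Ccs, Sod3, Msrb1, Mgst2, Mgst3, Cyba, Pax5, Trac, Selenof, Eefsec, Car1, Hba-a2, Alas2, Mecom, Slamf1, Blvrb and Slc40a1, and genes named as having 0 counts, partly fall outside that rule and were then chosen after their values were seen. The annotated selenoprotein set, transcript classes, the metal response core, G6pdx, Pgd and Slc7a11 were also added after seeing values. Alternatives were other thresholds, units, scalings, pseudocounts, margins, motifs and each library alone.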

Additional observations from a re-analysis of the deposited data

How the results depend on the processing

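The median level of the redox genes was 3.64 ± 0.47 as log2 (TPM + 1) (SD, n = 2). It was 5.54 as CPM without division by length and 6.00 with TPM over protein-coding genes, where all protein-coding genes had medians of 1.91 and 1.95 against 0.60 in log2 (TPM + 1). With each library alone it ran from 3.31 to 3.97. The number of genes apart and higher in replicate 2 was 8. It was 3 with TPM over protein-coding genes (4.48% of protein-coding genes), 3 with TMM-scaled CPM and 3 with DESeq2 size factors (2.15% in each), 3 with ratios centred on the median (3.19%, chosen after seeing the data) and 15 at 1.5-fold (23.7%), where the lower threshold admits more genes. The number higher in replicate 1 was 1, and 2 with TPM over protein-coding genes (7.24%). The response element core was in 8 promoters, the shorter TGANNNNGC in 15 (45.0% of all) and the longer form with an A after the core in 1. Detected genes were 35, and from 36 to 37 with each library alone. Ordered pairs were 24, and 26 with either library alone, since that removes the demand that libraries match, and 22 by direction on protein-coding transcripts (chosen after seeing the data). Of 38 alternative values for these counts and medians, 28 kept within the limits set and 10 moved as given. No paired analysis was possible because there is 1 group. Low counts limit Gpx3, Gpx8, Nqo1, Hmox1 and Mt2 most, and 2 libraries give no error beyond their difference.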

Other observations

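Other antioxidant proteins outside the 41 genes were detected for 15 of 20 listed. Park7, a protein that protects against oxidative stress, led with 82.0 TPM in replicate 2 and 57.3 in replicate 1. Txnl1, a thioredoxin-like protein of the proteasome, had 24.1 TPM in replicate 2 and 16.3 in replicate 1. Oxr1 had 23.5 TPM in replicate 2 and 19.1 in replicate 1. Tmx1, a thioredoxin-like protein of the endoplasmic reticulum, had 20.3 TPM in replicate 2 and 12.3 in replicate 1. None of the 20 was apart on deposited TPM. Msrb1, which repairs oxidised methionine, was apart and higher in replicate 1 under 3 of the 5 scalings, with a log2 ratio of -0.70 on deposited TPM and -1.02 on TPM over protein-coding genes.

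Among partners of NRF2, Mafg and Maff, the small MAF proteins that pair with it on DNA, were apart and higher in replicate 2 on deposited TPM. Maff was apart under all 5 scalings, while Mafg was apart on deposited TPM only. Mafg had 6.79 TPM in replicate 2 and 2.92 in replicate 1. Maff had 5.80 TPM in replicate 2 and 1.70 in replicate 1. Nfe2, a relative of NRF2 that drives globin and platelet genes, had 49.8 TPM in replicate 2 and 32.0 in replicate 1. Mthfd1, a folate enzyme, was the gene of the NADPH list that was apart, on deposited TPM only, at 30.4 TPM in replicate 2 and 12.9 in replicate 1. Both libraries held Bach1, a repressor of NRF2 targets, at 10.2 TPM in replicate 2 and 8.54 in replicate 1. These genes were named after their values were seen, and their differences on deposited TPM share the shift of 0.29 given for protein-coding genes.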
